A study of Homo sapiens with 6 samples.

Results

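Translation factors are the proteins that load ribosomes onto mRNAs and keep them moving. The genes described here were all protein-coding genes with a symbol that starts with EIF and a digit, or with EEF1 or EEF2, plus PABPC1, PDCD4 and ETF1, without genes of the Y chromosome. The rule found 70 of the 38126 gene IDs in the files. Of these, 67 had a mean of at least 0.1 FPKM (fragments scaled to gene length and library size, as deposited) in either group and are described, and 66 held at least 10 fragments in at least 3 libraries and were tested. EIF5AL1, EIF4E1B and EIF2S3B lay below 0.1 FPKM in both groups, and EIF4EBP3 was described but too low to test. EEF1G, whose symbol fits the rule, was not among the 70 and was not analysed here. Counts of EEF1 genes below therefore leave it out. EEF1A1 alone held 32.1 to 34.2% of the members' summed FPKM in every library, so sums over the members lean on it.

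HK-2 is a line of immortalised epithelial cells from the human renal proximal tubule, and its total RNA was sequenced in 6 libraries. In 3 libraries the treatment label gives untreated cells, and in the other 3 the cells had received phosphoramidon, which inhibits zinc metallopeptidases, for 24 h. Both groups were grown in Keratinocyte-serum-free medium supplemented with EGF and bovine pituitary extract, the series rests on a single cell line, and the labels state neither a dose nor a vehicle. The titles of the untreated libraries also hold the letters CSE, which the labels leave unexplained. The labels do not tie replicates to separate cultures, and p-values therefore reflect how these libraries vary, possibly for technical reasons alone.

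Initiation begins when EIF2 carries the initiator tRNA to the small ribosomal subunit, where EIF1, EIF1A, EIF3 and EIF5 gather, while the EIF4 proteins bind the mRNA cap and unwind the leader. EEF1 then brings aminoacyl-tRNAs to the ribosome and EEF2 moves the ribosome along. Many mRNAs of this machinery start with a C followed by a run of C and T, called a terminal oligopyrimidine tract, and the translation of such mRNAs is known to follow mTOR activity and the binding protein LARP1.

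The annotated starts of 12 members, picked as examples, show this feature and its absence, since the later results split along it. The picks do not mirror the shares. Of 39 tested members with annotated starts and no such run, 10 fell, 7 rose and 22 were not called. A member counts as having the run if any of its starts has it, and EEF1B2 also has a start without it (chr2:206159599-206159628). Each line holds 10 bases before and 20 bases from a RefSeq start (GRCh38.p14), 5′ to 3′ on the gene's strand, and capitals mark the unbroken run of C and T that opens with a C at the start itself. The members from EEF1A1 to EIF3F in this list fell after phosphoramidon, EIF2D was not called, and EIF1B, EIF4EBP2 and EIF6 have starts with no such run although EIF6 fell.
EEF1A1 (chr6:73521013-73521042, minus strand): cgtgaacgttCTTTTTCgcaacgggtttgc
EEF1B2 (chr2:206159885-206159914, plus strand): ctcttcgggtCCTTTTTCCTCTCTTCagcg
EEF2 (chr19:3985444-3985473, minus strand): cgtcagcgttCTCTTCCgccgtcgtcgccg
EIF4B (chr12:53006446-53006475, plus strand): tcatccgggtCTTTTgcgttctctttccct
EIF2S3 (chrX:24054946-24054975, plus strand): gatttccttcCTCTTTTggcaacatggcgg
EIF2A (chr3:150546777-150546806, plus strand): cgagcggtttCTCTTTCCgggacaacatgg
EIF3D (chr22:36529147-36529176, minus strand): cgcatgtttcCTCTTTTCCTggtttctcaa
EIF3F (chr11:7987327-7987356, plus strand): cttccgcctcCTTCTTTCTCgacaagatgg
EIF2D (chr1:206612446-206612475, minus strand): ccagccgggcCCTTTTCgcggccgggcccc
EIF1B (chr3:40309697-40309726, plus strand): cattttgtgcgagaagccgcagcgccgcct
EIF4EBP2 (chr10:70404135-70404164, plus strand): gccttcgcccgcttccggtcgtcgtcgtcg
EIF6 (chr20:35284698-35284727, minus strand): tggtaagctggtgtgaggggaacctgggag

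Of the 66 tested members, 30 fell, 8 rose and 28 were not called by limma's test at a Benjamini-Hochberg adjusted p below 0.05, run on log2 values after each library was scaled by a TMM factor that aligns the bulk of genes. Among all 16157 genes tested the same test called 33.7%, with 18% lower and 15.6% higher, against 45.5% lower and 12.1% higher among the members. The median log2 fold change of the members was -0.14 and that of all tested genes 0.01. The changes were small: 0 members passed limma's test against a 1.5-fold change, which 0.805% of all genes did, although EIF6 and EEF1A2 did so at an unadjusted p below 0.05 and with voom, which runs limma on weighted log fragments. Groups did not overlap in FPKM in 17 members that were higher and 30 that were lower, beside 49.7% of all tested genes (31.3% higher and 18.4% lower). In the values as deposited, with no factor between libraries, 26 members were lower and 13 higher, beside 13.4% and 22.6% of all genes, and the members' median was -0.07. Since the use of strand in counting is not known, the counts were also taken without the members that share at least 10% of their exon bases with a gene on either strand (and without EIF3C and EIF3CL), which left 45 tested, with 19 lower and 8 higher. Among members with called changes, this overlap lay mostly on the opposite strand for PDCD4 (29.5%), EIF4E2 (24.2%), EEF1AKMT3 (19.1%), EIF2AK3 (15.1%) and EIF4B (11.9%), and among members not called it reached 34.0% for EEF1D, 29.3% for EEF2KMT and 23.6% for EIF2B2.

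High genes were lower more often than others in these libraries. Of the 615 tested genes with a mean of at least 50 FPKM, 44.6% fell and 13.7% rose, and of the 17 members at that level 12 fell and 2 rose. Between 10 and 50 FPKM, 14 of 27 members fell and 4 rose, beside 27.6% and 20.6% of 3326 genes, and between 1 and 10 FPKM it was 3 and 2 of 19 members, beside 17.4% and 17.5% of 7850 genes. How far the level accounts for the members' share was not tested. The summed FPKM of all 70 members was 5189, 5156 and 5104 in the untreated and 4568, 4432 and 4389.5 in the phosphoramidon libraries, so the groups stood apart and the mean was 13.3% lower. In RNA from whole cultures, fewer cells of a kind and less RNA per cell cannot be told apart, and FPKM gives only shares of each library.

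**Figure D1:**
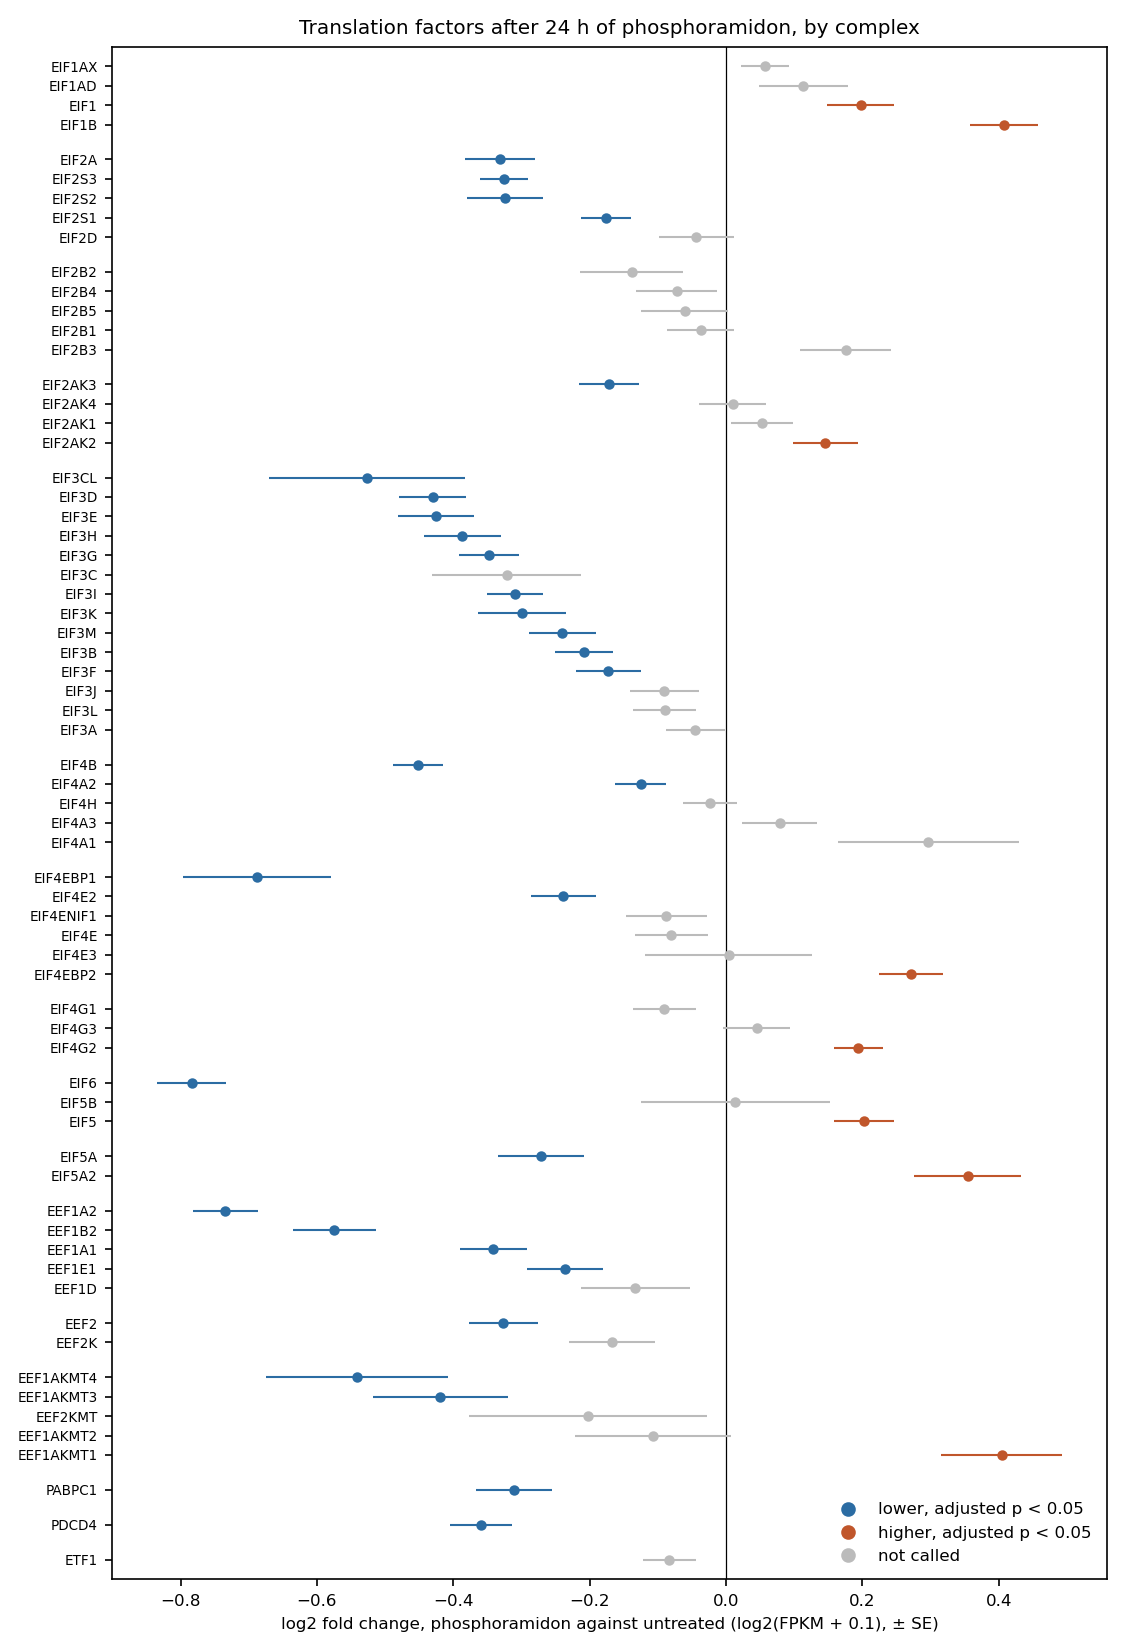
Each point is a tested member, with its log2 fold change between 3 phosphoramidon and 3 untreated libraries on the horizontal axis (log2(FPKM + 0.1), bars ± SE) and members grouped by complex on the vertical axis; colours give the limma call. Most EIF2, EIF3 and EEF1 members lie left of 0, the EIF2B members lie around 0, and EIF6 and EEF1A2 lie farthest left at -0.78 and -0.73.

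Library facts were as follows. Totals were 18690094 to 24919567 fragments, so that a single fragment on a gene of 1 kb was worth 0.0401 to 0.0535 FPKM. Fold changes were computed after division by TMM factors of 0.964 to 0.990 in untreated and 1.01 to 1.04 in phosphoramidon libraries. The factors lowered log2 fold changes, and the median of all tested genes was 0.01 with them and 0.07 as deposited. A gene can thus have a higher mean FPKM after phosphoramidon and a log2 fold change below 0, as EIF4H did. Overlap between groups was judged on FPKM as deposited. Of 9 markers of differentiated proximal tubule (LRP2, CUBN and transporters among them) none reached a mean of 1 FPKM, and SLC22A6 and SLC22A8 were at 0 in every library. Their summed FPKM was 1.12 to 1.55 in untreated and 0.730 to 0.952 in phosphoramidon libraries. Of 7 epithelial and renal markers 5 were above 1 FPKM (KRT8, KRT18, KRT19, EPCAM and PAX8), with sums of 389 to 430.1 and 269 to 287. The 4 fibroblast genes summed to 60.8 to 65.7 and 23.5 to 24.9 FPKM, mostly LUM and COL1A1, while the 3 endothelial and 2 measured leukocyte genes summed to at most 0.134 FPKM. The tubule, epithelial and fibroblast sums did not overlap between groups, and the endothelial and leukocyte sums did. Within the epithelial set KRT8, KRT18 and KRT19 were lower in every phosphoramidon library, PAX8 was higher (61.5 to 64.9 against 68.7 to 71.7 FPKM) and EPCAM overlapped. CDH1 and PAX2, both below 1 FPKM, were also higher in every phosphoramidon library. CDH1 went from 0.357 to 0.418 in untreated to 0.421 to 0.631 FPKM, and PAX2 from 0.0198 to 0.0323 to 0.0737 to 0.0836 FPKM. The part of these markers in the results on translation factors was not tested.

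EIF1 and EIF1A hold the small subunit in the open state that scans for a start codon. Of the 4 members, EIF1 and its close paralogue EIF1B rose and the others were not called, beside 15.6% higher among all tested genes. EIF1 (chromosome 17, 41688885 to 41692668) stood at 85.6, 94.5 and 92.1 FPKM in untreated and 113, 104 and 111 FPKM in phosphoramidon replicates 1 to 3, and values set against each other below follow the same order. All phosphoramidon libraries lay above all untreated ones, with a log2 fold change of 0.20 ± 0.05 (SE, as for all fold changes here) and limma adjusted p = 0.015, which became 0.051 without the filter on low genes. EIF1B (chromosome 3, 40309684 to 40312424) was lower in level, at 11.2, 11.8 and 11.9 against 16.8, 16.3 and 15.6 FPKM. Again no library overlapped, and its log2 fold change of 0.41 ± 0.05 (limma adjusted p = 0.00047) stood beside that of EEF1AKMT1 (0.40) at the top of the members, and their order turned with voom and without untreated replicate 1 or phosphoramidon replicate 1. EIF1AX, the X-linked EIF1A gene, gave 36.7, 38.8 and 38.1 against 40.3, 42.1 and 41.8 FPKM, and EIF1AD, a protein with an EIF1A-like domain, gave 6.73, 6.42 and 6.504 against 8.01, 7.24 and 7.14 FPKM. Their log2 fold changes of 0.06 ± 0.04 and 0.11 ± 0.06 did not pass limma's test (adjusted p = 0.25 and 0.22), and both passed it in the values as deposited (adjusted p = 0.024 and 0.039). The ratio of EIF1B to EIF1 was 0.128 ± 0.0026 (SD, n = 3) in untreated and 0.149 ± 0.0078 in phosphoramidon libraries, without overlap, a ratio chosen after its values were seen.

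EIF2 is the trimer that binds GTP and the initiator tRNA, and all of its 3 subunits fell, beside 18% of all tested genes. The alpha subunit EIF2S1, the target of the stress kinases, gave 23.3, 23.9 and 23.4 FPKM in untreated and 22.00, 21.4 and 22.2 FPKM in phosphoramidon replicates 1 to 3. Its groups did not overlap, but the log2 fold change of -0.18 ± 0.04 (limma adjusted p = 0.0070) was the smallest of the trimer. The beta subunit EIF2S2 gave 79.1, 86.1 and 89.3 against 69.1, 75.7 and 68.6 FPKM, a log2 fold change of -0.32 ± 0.06 (limma adjusted p = 0.0028). The GTP-binding gamma subunit EIF2S3 (chromosome X, 24054716 to 24077971) gave 114, 114 and 117 against 95.9, 96.0 and 96.9 FPKM. The libraries of either group lay close together and apart from the other group, and the log2 fold change was -0.33 ± 0.03 (limma adjusted p = 0.00025).

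Beside the trimer stand EIF2A and EIF2D, factors that can deliver initiator tRNA without EIF2. EIF2A (chromosome 3, 150546678 to 150584242) gave 15.8, 16.6 and 17.8 against 13.7, 14.3 and 13.7 FPKM and fell with a log2 fold change of -0.33 ± 0.05 (limma adjusted p = 0.0017). EIF2D gave 5.49, 5.29 and 5.41 against 5.61, 5.35 and 5.54 FPKM, with overlapping groups and a log2 fold change of -0.04 ± 0.05 (limma adjusted p = 0.58). All 4 calls of EIF2A and the trimer held in every alternative fit that was run.

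EIF2B recycles EIF2 by exchanging its GDP for GTP, and it is the complex that phosphorylated EIF2 blocks. None of its 5 subunits was called by limma or by voom, beside 33.7% of all tested genes called by limma. EIF2B3 alone among the 5 had an unadjusted p below 0.05. EIF2B3 gave 5.22, 5.87 and 5.23 against 6.81, 6.44 and 6.16 FPKM without overlap, with a log2 fold change of 0.18 ± 0.07 (limma adjusted p = 0.074, and 0.021 in the values as deposited). The catalytic subunit EIF2B5 gave 5.98, 5.66 and 5.65 against 6.12, 5.75 and 5.55 FPKM, and its log2 fold change was -0.06 ± 0.06 (limma adjusted p = 0.51). The remaining subunits also overlapped between groups. EIF2B1 gave 11.6, 13.1 and 12.8 against 12.6, 12.9 and 12.8 FPKM, EIF2B2 5.05, 4.66 and 4.82 against 4.89, 4.22 and 4.75 FPKM, and EIF2B4 5.24, 5.56 and 5.14 against 5.50, 5.30 and 5.12 FPKM. Their log2 fold changes were -0.04 ± 0.05, -0.14 ± 0.07 and -0.07 ± 0.06, with limma adjusted p = 0.60, 0.19 and 0.38. Thus the subunits of EIF2 were called lower and those of its exchange factor were not called; the difference between the complexes was not tested.

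The EIF2AK kinases phosphorylate EIF2S1 in response to haem shortage (EIF2AK1), double-stranded RNA (EIF2AK2, PKR), misfolded protein in the endoplasmic reticulum (EIF2AK3, PERK) and amino acid shortage (EIF2AK4). Of the 4 kinase genes, EIF2AK2 rose, EIF2AK3 fell and the others were not called, and neither call was firm. Of all tested genes 15.6% rose and 18% fell. EIF2AK2 gave 11.5, 10.8 and 11.5 against 12.7, 13.1 and 13.5 FPKM, a log2 fold change of 0.15 ± 0.05 without overlap (limma adjusted p = 0.046). This call was lost with median-of-ratios factors (adjusted p = 0.052), without the low filter (adjusted p = 0.17) and in 5 of the 6 fits that left out a library (all but the one without untreated replicate 1), with limma adjusted p from 0.069 to 0.16. EIF2AK3 gave 15.2, 15.9 and 15.7 against 14.2, 15.2 and 14.2 FPKM, a log2 fold change of -0.17 ± 0.04 (limma adjusted p = 0.017), which did not pass as deposited (adjusted p = 0.11) or without phosphoramidon replicate 3 (adjusted p = 0.058). EIF2AK1, the kinase gene with the highest FPKM, gave 35.1, 34.6 and 35.1 against 38.3, 39.5 and 36.5 FPKM, and EIF2AK4 gave 6.36, 6.62 and 6.39 against 6.72, 7.06 and 6.72 FPKM. Their log2 fold changes of 0.05 ± 0.05 and 0.01 ± 0.05 had limma adjusted p = 0.41 and 0.90. The groups did not overlap for either gene, and EIF2AK1 passed in the values as deposited (adjusted p = 0.034).

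EIF3 is the largest initiation factor, a scaffold on the small subunit whose structural core is made of subunits a, c, e, f, h, k, l and m. Of its 14 genes 10 fell (71.4%), EIF3CL among them, 4 were not called and none rose, beside 18% lower and 15.6% higher among all tested genes. The median level of the EIF3 genes was 28.7 FPKM, and between 10 and 50 FPKM 27.6% of all tested genes fell. No EIF3 gene rose at an unadjusted p below 0.05 or with voom either. The members that fell covered both the core (EIF3E, EIF3F, EIF3H, EIF3K and EIF3M) and the subunits outside it (EIF3B, EIF3D, EIF3G and EIF3I). EIF3D, which can itself bind the cap of some mRNAs, gave 56.4, 52.9 and 52.7 FPKM in untreated and 43.2, 42.3 and 40.7 FPKM in phosphoramidon replicates 1 to 3. Its groups lay far apart, with a log2 fold change of -0.43 ± 0.05 (SE, limma adjusted p = 0.00034). EIF3E gave 37.9, 40.6 and 42.5 against 29.2, 33.0 and 32.4 FPKM, and the core subunit EIF3H gave 32.6, 30.6 and 33.8 against 26.6, 26.4 and 24.9 FPKM. Both stood lower in every phosphoramidon library, with log2 fold changes of -0.43 ± 0.06 and -0.39 ± 0.06 (limma adjusted p = 0.00069 and 0.0011).

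EIF3G and EIF3I form a small module with EIF3B. EIF3G gave 31.6, 30.5 and 30.5 against 26.2, 25.3 and 24.9 FPKM, a log2 fold change of -0.35 ± 0.04 (limma adjusted p = 0.00061). EIF3I, the EIF3 gene with the highest untreated mean, gave 141, 144 and 139.5 against 124, 116 and 119.8 FPKM, a log2 fold change of -0.31 ± 0.04 (limma adjusted p = 0.00073). The third of the module, EIF3B, had a log2 fold change of -0.21 ± 0.04. Of the remaining subunits that fell, EIF3K had -0.30 ± 0.06, EIF3M -0.24 ± 0.05 and EIF3F -0.17 ± 0.05 on the log2 scale. EIF3F lost its call in the values as deposited (limma adjusted p = 0.0997), without the low filter (adjusted p = 0.052) and in 5 of the 6 fits that left out a library (all but the one without untreated replicate 2, adjusted p from 0.055 to 0.084).

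Not every EIF3 subunit moved with the rest. EIF3A, the largest subunit and a known terminal oligopyrimidine gene, had a log2 fold change of -0.04 ± 0.04 (limma adjusted p = 0.46), with overlapping groups of 81.2, 89.8 and 87.4 against 84.8, 90.7 and 87.5 FPKM. EIF3J, a loosely bound subunit, and EIF3L had log2 fold changes of -0.09 ± 0.05 and -0.09 ± 0.05 (limma adjusted p = 0.20 and 0.17). The near-identical copies EIF3C and EIF3CL cannot be told apart with certainty by short reads. EIF3C was listed at 2.38, 2.12 and 1.84 against 1.66, 1.72 and 1.86 FPKM, far under the other subunits, with a log2 fold change of -0.32 ± 0.11 (limma adjusted p = 0.051). EIF3CL stood below 0.8 FPKM, and its log2 fold change of -0.53 ± 0.14 (limma adjusted p = 0.022) lost its call without untreated replicate 1, untreated replicate 2 or phosphoramidon replicate 3 (adjusted p = 0.057, 0.069 and 0.063) and without the low filter (adjusted p = 0.089). Subunit C is part of every core, so its listed level is uncertain. EIF3L shares 41.1% of its exon bases with other genes on its strand.

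**Figure D2:**
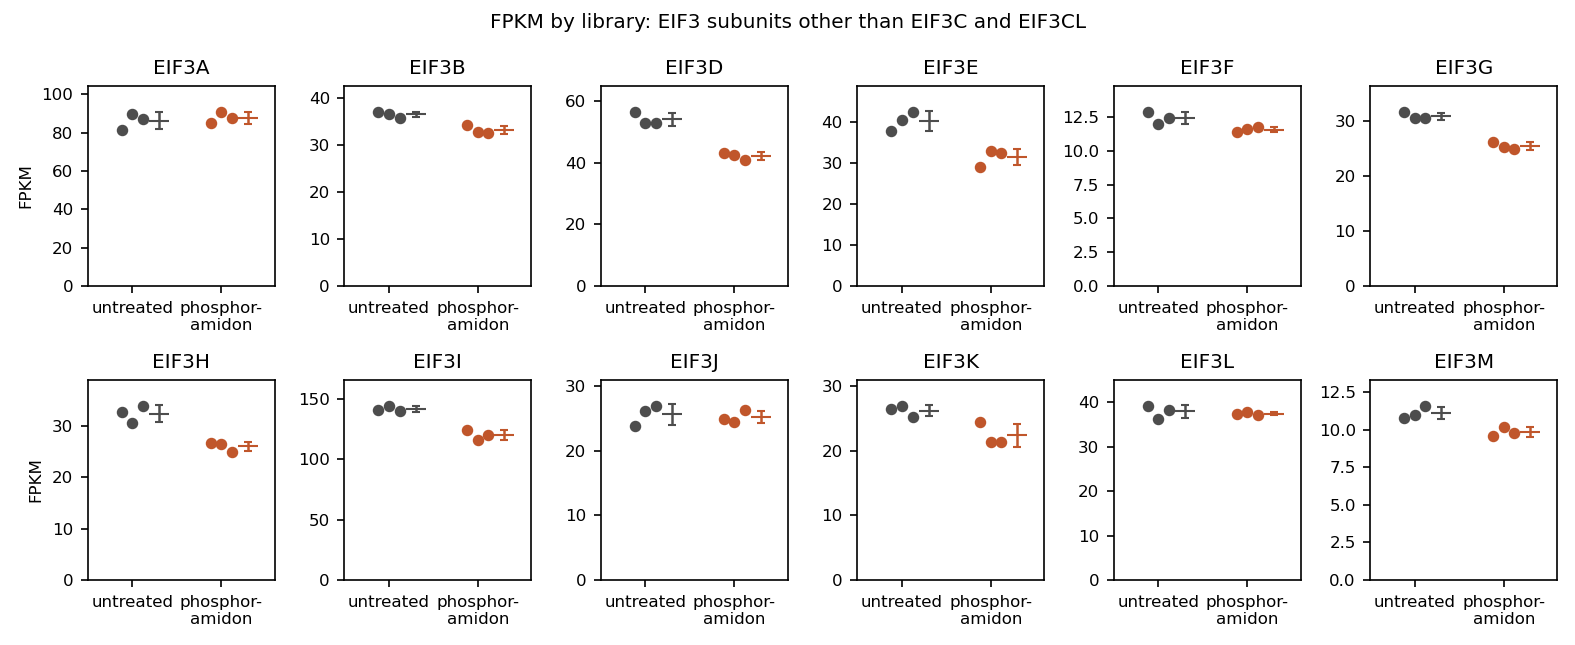
FPKM of EIF3 subunits by library: grey points are the 3 untreated and orange points the 3 phosphoramidon libraries, and the bars beside them give mean ± SD; every vertical axis starts at 0. EIF3D, EIF3E, EIF3G, EIF3H and EIF3I are lower in every phosphoramidon library, while EIF3A, EIF3J and EIF3L overlap.

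The EIF4 proteins act on the cap and the leader of the mRNA, and here they moved in several directions. EIF4B, which stimulates the helicase EIF4A, gave 95.2, 94.6 and 91.9 FPKM in untreated and 72.2, 72.6 and 71.6 FPKM in phosphoramidon replicates 1 to 3 (chromosome 12, 53006158 to 53042209). The groups lay far apart for their spread, and the log2 fold change was -0.45 ± 0.04 (limma adjusted p = 6.4e-05). EIF4H, a relative of EIF4B with the same kind of role, gave 129.8, 130.0 and 131 against 136, 129 and 139 FPKM with overlap, a log2 fold change of -0.02 ± 0.04 (limma adjusted p = 0.68). The helicase EIF4A2 gave 50.8, 54.4 and 53.5 against 49.2, 51.4 and 52.3 FPKM with overlapping groups. Its log2 fold change of -0.13 ± 0.04 (limma adjusted p = 0.031) did not pass in the values as deposited (adjusted p = 0.32). It also did not pass in 5 of the 6 fits that left out a library (all but the one without untreated replicate 1, adjusted p from 0.052 to 0.090). EIF4A2 shares 10.5% of its exon bases with other genes on its strand. EIF4A3, a helicase of the exon junction complex, gave 16.4, 15.6 and 17.3 against 18.6, 17.4 and 18.7 FPKM without overlap, a log2 fold change of 0.08 ± 0.05 that did not pass limma's test (adjusted p = 0.30, and 0.046 as deposited).

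EIF4A1 cannot be read as a level here. It was listed at 0.841, 1.199 and 1.04 against 1.34, 1.28 and 1.39 FPKM, far under EIF4A2, but 48.6% of its exon bases are shared with other genes on its strand, and how the authors' counting treated shared exons is not given in the sources used here. Its log2 fold change of 0.30 ± 0.13 did not pass limma's test (adjusted p = 0.12), and ratios against EIF4A1 are therefore not interpreted. PDCD4, an inhibitor that binds the helicase EIF4A, fell: it gave 27.4, 29.9 and 29.4 against 23.7, 24.3 and 22.9 FPKM without overlap, a log2 fold change of -0.36 ± 0.05 (limma adjusted p = 0.00058).

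EIF4E binds the cap itself, and its binding proteins keep it from EIF4G. EIF4E gave 6.25, 6.43 and 6.81 against 6.42, 6.55 and 6.38 FPKM, with overlapping groups and a log2 fold change of -0.08 ± 0.05 (limma adjusted p = 0.29). The 2 main binding proteins moved apart. EIF4EBP1 (chromosome 8, 38030341 to 38060365) gave 52.3, 55.0 and 48.7 FPKM in untreated and 40.1, 31.8 and 30.4 FPKM in phosphoramidon replicates 1 to 3, lower in every library, with a log2 fold change of -0.69 ± 0.11 (limma adjusted p = 0.0027). EIF4EBP2 (chromosome 10, 70404379 to 70428618) gave 33.8, 33.4 and 32.7 against 44.0, 42.1 and 40.6 FPKM and rose, with a log2 fold change of 0.27 ± 0.05 (limma adjusted p = 0.0027). EIF4EBP1 thus stood above EIF4EBP2 in every untreated library and below it in every phosphoramidon library.

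Ratios within a library do not depend on the scaling between libraries. EIF4EBP1 was 8.38, 8.55 and 7.15 times EIF4E in the untreated libraries and 6.24, 4.85 and 4.77 times in the phosphoramidon libraries. The ratio of EIF4EBP2 to EIF4EBP1, added after its values were seen, was 0.641 ± 0.0331 (SD, n = 3) in untreated and 1.253 ± 0.134 in phosphoramidon libraries. Neither ratio overlapped between groups. EIF4E2, a cap-binding protein that does not bind EIF4G, gave 12.3, 12.2 and 11.9 against 10.9, 10.3 and 11.3 FPKM and fell with a log2 fold change of -0.24 ± 0.05 (limma adjusted p = 0.0054). EIF4ENIF1, the carrier of EIF4E into the nucleus, gave 8.15, 7.88 and 7.57 against 7.54, 8.29 and 7.51 FPKM with overlap, a log2 fold change of -0.09 ± 0.06 (limma adjusted p = 0.29). EIF4E3 had a log2 fold change of 0.00 ± 0.12 at a mean of 0.705 FPKM in untreated libraries, and EIF4EBP3 was listed at 0.307, 0.178 and 0.407 against 0.309, 0.521 and 0 FPKM, with 73.4% of its exon bases shared with other genes on its strand.

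EIF4G is the scaffold that joins the cap complex to EIF3. The canonical EIF4G1 gave 68.5, 69.7 and 64.4 against 69.2, 64.9 and 65.8 FPKM with overlapping groups, and its paralogue EIF4G3 gave 18.9, 21.0 and 21.0 against 21.1, 22.7 and 22.2 FPKM. Their log2 fold changes of -0.09 ± 0.05 and 0.04 ± 0.05 did not pass limma's test (adjusted p = 0.17 and 0.52). EIF4G2, known as DAP5, lacks the EIF4E-binding part and serves cap-independent initiation. It gave 114, 113 and 115 FPKM in untreated and 137, 139 and 135 FPKM in phosphoramidon replicates 1 to 3 (chromosome 11, 10797050 to 10809110). This member was higher in every phosphoramidon library, with a log2 fold change of 0.19 ± 0.04 (limma adjusted p = 0.0041).

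Factors that act when the subunits join moved apart too. EIF5, which makes EIF2 hydrolyse its GTP at the start codon, gave 30.3, 33.2 and 32.4 against 37.3, 40.1 and 38.6 FPKM and rose, with a log2 fold change of 0.20 ± 0.04 (limma adjusted p = 0.0079). EIF5B, the GTPase of subunit joining, varied more between libraries, at 15.3, 20.7 and 21.1 against 17.3, 20.03 and 22.9 FPKM. Untreated replicate 1 was the lowest library and phosphoramidon replicate 3 the highest, and the log2 fold change was 0.01 ± 0.14 (limma adjusted p = 0.95). EIF6, which binds the large subunit and keeps it from joining too early, had the lowest log2 fold change of the tested members, except without phosphoramidon replicate 1, where EIF4EBP1 was lower (chromosome 20, 35278911 to 35284985). It gave 76.6, 72.4 and 67.8 FPKM in untreated and 44.1, 43.5 and 44.4 FPKM in phosphoramidon replicates 1 to 3. The phosphoramidon libraries lay close together and far under the lowest untreated one, and the log2 fold change was -0.78 ± 0.05 (limma adjusted p = 2.5e-05). EIF6 fell by 41.9% and shares 17.4% of its exon bases with other genes on its strand.

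Elongation factor 1 delivers aminoacyl-tRNAs, and 4 of the 5 tested genes grouped with it fell (80%). Of all tested genes 18% fell, and 44.6% of those with a mean of at least 50 FPKM, the range of EEF1A1, EEF1A2 and EEF1B2. EEF1A1 (chromosome 6, 73515750 to 73523797), the GTPase that carries the tRNA, was the highest member at 1748, 1762 and 1739 FPKM in untreated and 1513, 1423 and 1420.3 FPKM in phosphoramidon replicates 1 to 3. Every phosphoramidon library lay under every untreated one, with a log2 fold change of -0.34 ± 0.05 (SE, limma adjusted p = 0.0011). EEF1A2 (chromosome 20, 63488012 to 63499322), its paralogue, which is known from muscle and neurons, gave 185, 175 and 171 against 115, 108 and 112 FPKM. It fell by 39.9%, a log2 fold change of -0.73 ± 0.05 (limma adjusted p = 2.5e-05). The ratio of EEF1A2 to EEF1A1 was 0.101 ± 0.0042 (SD, n = 3) in untreated and 0.0770 ± 0.0018 in phosphoramidon libraries, without overlap, so EEF1A2 stood lower relative to EEF1A1 after phosphoramidon.

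The other EEF1 genes encode the exchange complex and a partner. EEF1B2, an exchange factor that reloads EEF1A with GTP, gave 136, 132 and 128 against 99.8, 93.8 and 86.7 FPKM (chromosome 2, 206159585 to 206162928). It stood lower in every phosphoramidon library, with a log2 fold change of -0.57 ± 0.06 (limma adjusted p = 0.00025), and 16.4% of its exon bases are shared with other genes on its strand. The delta exchange factor EEF1D gave 8.05, 8.97 and 7.73 against 7.72, 7.16 and 8.86 FPKM with overlapping groups, a log2 fold change of -0.13 ± 0.08 (limma adjusted p = 0.24). EEF1E1, a part of the complex of tRNA synthetases, gave 5.95, 6.09 and 6.48 against 5.30, 5.52 and 5.65 FPKM. Its log2 fold change of -0.24 ± 0.06 (limma adjusted p = 0.012) did not pass as deposited (adjusted p = 0.051). EEF1E1 shares 18.7% of its exon bases with other genes on its strand. Of the processed copies of EEF1A1, EEF1A1P5 was listed at 33.6 to 45.7 FPKM and also fell (log2 fold change -0.36, limma adjusted p = 0.035). All 40 annotated EEF1A1 pseudogenes held 0.624 to 0.759% of the fragments of parent and copies.

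EEF2 moves the ribosome by a codon, and EEF2K is the kinase that inactivates it. EEF2 (chromosome 19, 3976056 to 3985469) gave 590.4, 555 and 545 against 485, 465 and 466 FPKM and fell, with a log2 fold change of -0.33 ± 0.05 (limma adjusted p = 0.0015). EEF2K gave 6.58, 6.54 and 6.55 against 6.39, 5.63 and 6.38 FPKM, with phosphoramidon replicate 2 lowest and no overlap. Its log2 fold change of -0.17 ± 0.06 did not pass limma's test (adjusted p = 0.072) and passed with voom (adjusted p = 0.018). The ratio of EEF2K to EEF2 was 0.0117 ± 0.00045 (SD, n = 3) in untreated and 0.0130 ± 0.00081 in phosphoramidon libraries, without overlap.

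**Figure D3:**
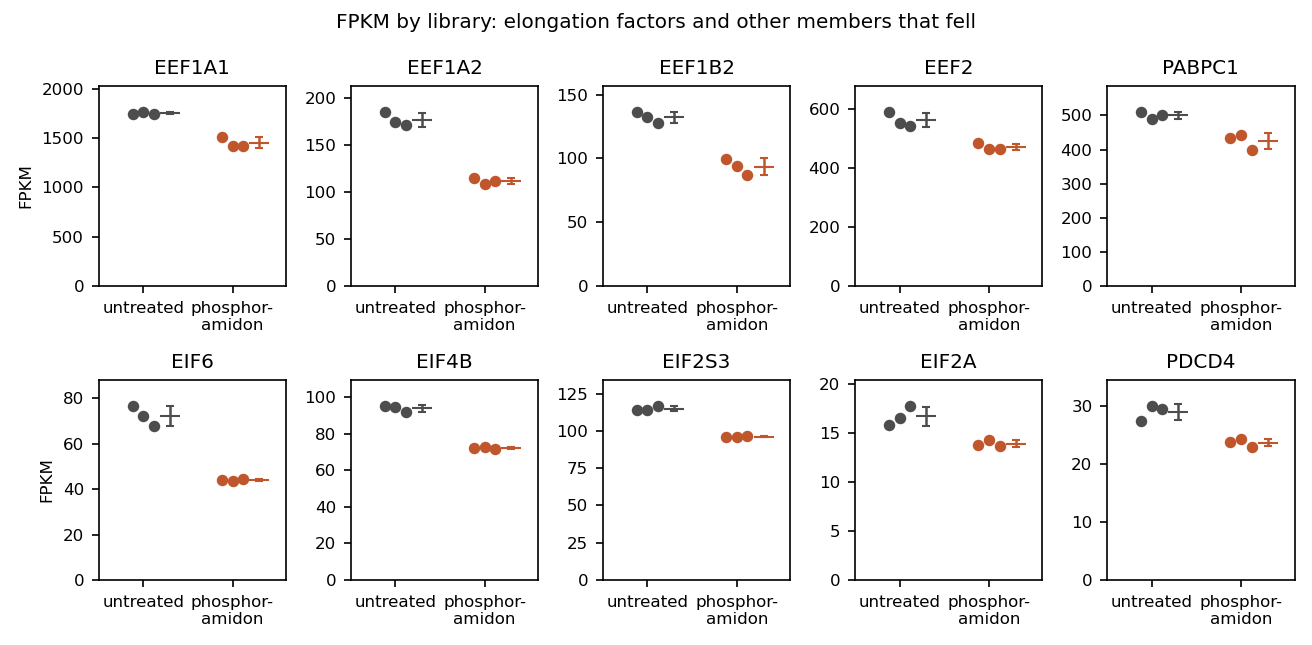
FPKM by library of 10 members that fell: grey points are the 3 untreated and orange points the 3 phosphoramidon libraries, and the bars beside them give mean ± SD; every vertical axis starts at 0. In all 10 panels the phosphoramidon libraries lie under the untreated ones, from 1739 or more to 1513 or less FPKM in EEF1A1 and from 67.8 or more to 44.4 or less FPKM in EIF6.

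EIF5A helps the ribosome through stretches that form peptide bonds slowly, and it carries hypusine, a modified lysine found in no other protein family. EIF5A and its paralogue EIF5A2 moved in opposite directions. EIF5A gave 180.4, 163 and 152 against 145, 141 and 145 FPKM, a log2 fold change of -0.27 ± 0.06 (limma adjusted p = 0.011). EIF5A2 stood far lower, at 4.17, 3.94 and 4.57 against 5.82, 5.95 and 5.34 FPKM, and rose with a log2 fold change of 0.35 ± 0.08 (limma adjusted p = 0.0088), which became 0.053 without the low filter. The ratio of EIF5A2 to EIF5A, added after its values were seen, was 0.0258 ± 0.0037 (SD, n = 3) in untreated and 0.0398 ± 0.0027 in phosphoramidon libraries, without overlap. The processed copy EIF5AP4 was listed at 23.7 to 31.9 FPKM and fell as well (log2 fold change -0.28, limma adjusted p = 0.015), and copies held 2.81 to 3.31% of the fragments of EIF5A and its copies.

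**Figure D4:**
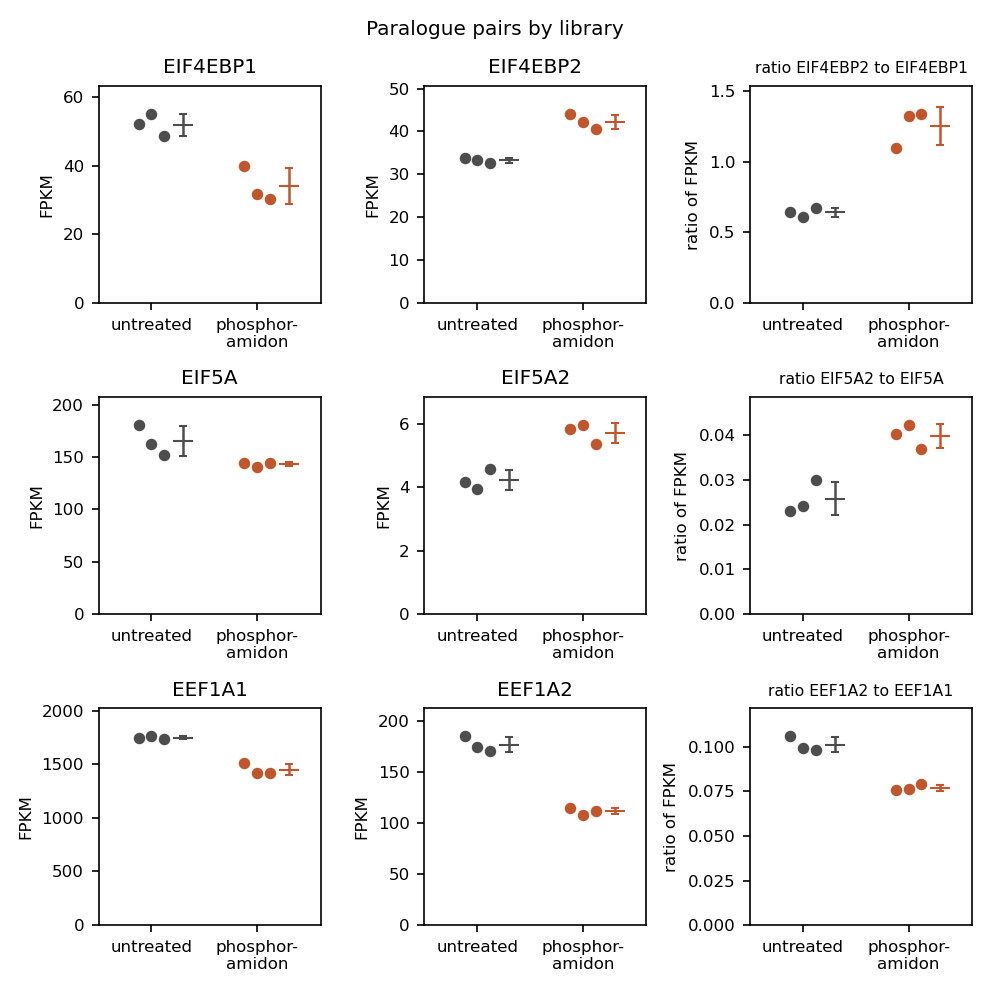
Paralogue pairs by library: the left and middle panels give FPKM of each gene and the right panels their ratio within a library, with grey points for the 3 untreated and orange points for the 3 phosphoramidon libraries, and mean ± SD beside them; every vertical axis starts at 0. EIF4EBP2 to EIF4EBP1 goes from 0.641 to 1.253 and EIF5A2 to EIF5A from 0.0258 to 0.0398, while EEF1A2 to EEF1A1 goes from 0.101 to 0.0770.

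The methyltransferases that modify lysines of EEF1A and EEF2 were low, and of the 5 genes EEF1AKMT3 and EEF1AKMT4 fell and EEF1AKMT1 rose. Among all tested genes 18% fell and 15.6% rose. EEF1AKMT1 gave 4.74, 4.09 and 3.73 against 5.59, 5.93 and 5.96 FPKM without overlap, a log2 fold change of 0.40 ± 0.09 (limma adjusted p = 0.0085, and 0.057 without the low filter). EEF1AKMT3 gave 1.94, 1.93 and 2.03 against 1.58, 1.36 and 1.63 FPKM, a log2 fold change of -0.42 ± 0.10 (limma adjusted p = 0.012). EEF1AKMT4, which shares 26.3% of its exon bases with a read-through gene, gave 1.54, 1.51 and 1.746 against 1.29, 0.947 and 1.150 FPKM, a log2 fold change of -0.54 ± 0.13 (limma adjusted p = 0.015, and 0.054 without the low filter). The remaining methyltransferases were not called and overlapped between groups. EEF1AKMT2 gave 1.03, 1.152 and 1.247 against 1.04, 1.14 and 1.14 FPKM and EEF2KMT 1.18, 0.7496 and 0.850 against 0.855, 0.757 and 0.850 FPKM, with log2 fold changes of -0.11 ± 0.11 and -0.20 ± 0.17 (limma adjusted p = 0.51 and 0.41).

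PABPC1 coats the poly(A) tail and links it to EIF4G, and it was the third highest member. It gave 509.8, 488 and 503 FPKM in untreated and 434, 442 and 397 FPKM in phosphoramidon replicates 1 to 3 (chromosome 8, 100685816 to 100722809). The groups lay apart, and the log2 fold change was -0.31 ± 0.06 (limma adjusted p = 0.0033). ETF1, the release factor that reads the stop codon, gave 34.5, 34.3 and 35.3 against 35.05, 33.9 and 34.4 FPKM. Its groups overlapped, and its log2 fold change was -0.08 ± 0.04 (limma adjusted p = 0.14).

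The members split by their annotated starts. A start opening with C and at least 4 further C or T letters was found in 13 of the 55 members with an entry in the RefSeq table (23.6%). Of all 27305 genes with an entry, a set that also holds genes not tested here, 5.14% had such a start. The 13 members include EIF2S3B, which was not tested. Of the 12 tested ones 11 fell and EIF2D was not called (median log2 fold change -0.33). Of the 39 tested members with annotated starts and no such run, 10 fell, 7 rose and 22 were not called, with a median of -0.07. None of the first set rose in limma's test, at an unadjusted p below 0.05 or with voom. Among all tested genes, 29.4% of the 816 with such a start fell and 13.4% rose (median -0.06), beside 18.7% and 16.7% of the 10617 without it (median 0.01).

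This split was made after values were seen, gets no test, and is a description of annotation, not of where transcripts start in HK-2 cells. The median level was 49.99 FPKM in the members with a tract and 13.9 FPKM in those without, and the part of level in the split was not tested. In the values as deposited 9 of the 12 and 8 of the 39 were lower, and 11 of the 39 higher. The 15 tested members with no entry in the table held 9 that fell and 1 that rose, with a median of -0.32. Of 10 tested members long known as terminal oligopyrimidine genes, EEF1A1, EEF1B2, EEF2, EIF3E, EIF3F, EIF3H, EIF4B and PABPC1 fell (80%). EEF1D and EIF3A were not called, and the median log2 fold change of the 10 was -0.33. Beside this, 18% of all tested genes fell, and 44.6% of those with a mean of at least 50 FPKM. The median level of these 10 members was 84.9 FPKM, and the part of level was not tested here either.

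**Figure D5:**
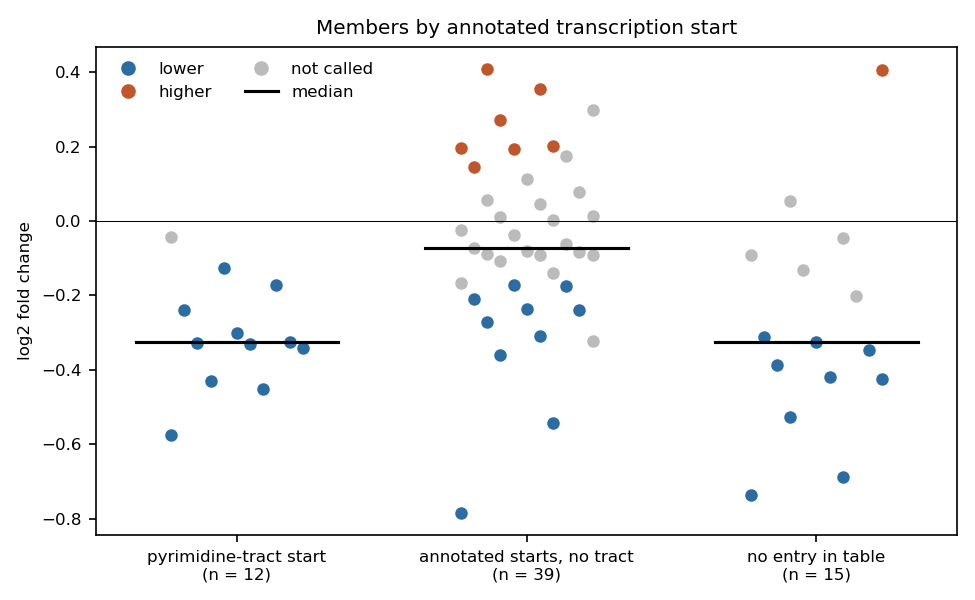
Log2 fold change of the 66 tested members (vertical axis), set out by whether a RefSeq start opens with C and at least 4 further C or T letters; blue points fell, orange points rose, grey points were not called, and black lines are medians. The 12 members with such a start all lie under 0 with a median of -0.33 (EIF2D, not called, turned to 0.03 as deposited), and the 39 without it spread around a median of -0.07.

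Other genes of translation, a list of 62 with all of them tested, held 7 that rose (11.3%) and 17 that fell (27.4%), beside 15.6% and 18% of all tested genes, and the median log2 fold change was -0.05, beside 0.01 for all genes tested (11 higher and 10 lower in the values as deposited, and 11 lower without phosphoramidon replicate 2). Around mTOR and the cap, 4 of 15 genes rose (26.7%) and 5 fell (33.3%), beside the same 15.6% and 18% of all tested genes. The kinase MTOR itself went from 14.8 ± 0.350 to 20.04 ± 0.3003 FPKM (SD, n = 3; log2 fold change 0.37), and its substrate kinase RPS6KB1 from 5.30 ± 0.588 to 7.67 ± 0.275 FPKM (0.46). Its GTPase activator RHEB (0.21) and the EIF4E kinase MKNK1 (0.27) also rose on the log2 scale. The mTOR inhibitor DEPTOR (-0.47), the partners MLST8 (-0.35) and RPTOR (-0.23), LARP1 (-0.13) and the mTORC1 inhibitor DDIT4 (-0.15) fell, the last 3 not in the values as deposited. Of the 6 fits that left out a library, 1 called RPTOR, 2 called LARP1 and 2 called DDIT4, and the groups of LARP1 overlapped. RHEB and MKNK1 were each called in 5 of these fits.

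Around EIF2 phosphorylation, 1 of 9 genes rose (11.1%) and 3 fell (33.3%), again beside 15.6% and 18% of all tested genes. ATF4, the transcription factor whose translation rises when EIF2 is phosphorylated, went from 119 ± 3.42 to 87.3 ± 2.40 FPKM (SD, n = 3), a log2 fold change of -0.52 (limma adjusted p = 6.4e-05). Its target TRIB3 (-0.21) and GCN1, the activator of EIF2AK4 (-0.20), fell as well, while DNAJC3, an inhibitor of the kinases, rose (0.19). Of the 9 genes that make hypusine and diphthamide, the modifications of EIF5A and EEF2, the diphthamide enzymes DPH1 (-0.50) and DPH2 (-0.32) fell and none rose by limma, also at an unadjusted p below 0.05, though voom called 1. The start-site helicase DHX29 rose (0.54) and the reinitiation factor MCTS1 fell (-0.25). EEFSEC, which brings selenocysteine, rose from 4.10 ± 0.166 to 6.43 ± 0.173 FPKM (SD, n = 3; log2 fold change 0.57), and the nascent chain factors NACA (-0.47) and BTF3 (-0.31) fell. Of 5 poly(A) binding genes only PABPC4 passed limma's test (-0.16). Of 9 mitochondrial factors MRRF (-0.33), TUFM (-0.21) and MTIF3 (-0.34) fell, and of 6 termination and recycling genes none was called by limma, 3 had an unadjusted p below 0.05 and voom called 2. GCN1, MCTS1, PABPC4 and MTIF3 did not keep their calls in the values as deposited. The groups of MTIF3 and GCN1 overlapped. Of the 6 fits that left out a library, 2 called MTIF3, 3 called PABPC4 and 5 called GCN1. DNAJC3, MCTS1 and TUFM were each called in 4 of these fits. Thus 22.2% of the hypusine and diphthamide, 20% of the poly(A) binding and 33.3% of the mitochondrial genes fell, beside 18% of all tested genes. No gene of termination and recycling was called, beside 33.7% of all tested genes.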

How the data were processed

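The 6 files the authors deposited hold FPKM, as judged from the values, with 38126 Ensembl IDs in each. Per the submitters' processing notes, the build was GRCh38 and the tools included HISAT2 2.1.0, Trimmomatic 0.38, DESeq2 1.22.1 and featureCounts 1.6.0. Whether strand was used, how shared exons were treated and which annotation release served were not given in the sources used here. FPKM are relative to library and length, so a change is a change in share. Multiplied by length, FPKM fell on whole multiples of 1 step per library (79.1% of genes within 0.05 of a whole fragment at the GENCODE 29 exon length, 99.6% at some length, which was searched for and is no check), and the steps gave the totals. These recovered fragments, in which a single fragment on 1 kb is worth 0.0401 to 0.0535 FPKM, served for the filter and scaling.

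Symbols matched 37892 IDs; coordinates are GENCODE 29 (GRCh38). Genes with at least 10 fragments in at least 3 libraries were tested with limma 3.58.1 (R 4.3.3) on log2(FPKM divided by a TMM factor + 0.1), with group as the only term, a trended and robust variance prior, and Benjamini-Hochberg adjustment over all 16157 genes (threshold 0.05, two-sided). TMM trimmed 30% of M and 5% of A values. Fold changes are on that scale and understate changes of low genes; FPKM printed by library are as deposited. The fit was tested on simulated data. Alternatives were the values as deposited, median-of-ratios factors, a pseudocount of 1, no filter, voom, the replicate block and leaving out each library; ratios of 3 further pairs, the split by start and counts without uncertain members were added after the data were seen.

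Members and lists were chosen with earlier results of these data known. Values are given for up to 5 members of lowest p in each complex and for PABPC1, PDCD4 and ETF1, and for other translation genes up to 3 called per sub-list or all where 5 or fewer were called; others by fold change, except EIF3A, EIF3C and EIF4EBP3, whose values by library were added after they were seen. Starts come from a RefSeq table (GRCh38.p14) of 300 bases per start, which held 55 of 70 members. Uncertain members share at least 10% of exon bases with a gene on the same strand (or, in a wider count, on either strand), or are EIF3C and EIF3CL.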

Additional observations from a re-analysis of the deposited data

How the results depend on the processing

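Of the 38 called members, 28 kept their call in every alternative run (4 higher, 24 lower). Counts of higher members were 13 in the values as deposited and 4 with no filter, against 8, and 7 to 8 over the fits that left out 1 library, with 26 to 29 lower. The test against 1.5-fold gave 2 members with voom and 0 in every fit without 1 library. The members' median was -0.065 as deposited, -0.12 with a pseudocount of 1, -0.15 with no filter, -0.14 with voom and -0.15 to -0.13 without 1 library. Other translation genes gave 11 higher and 10 lower as deposited, 4 higher with no filter, and 6 to 8 higher and 11 to 15 lower without 1 library. Leaving out 1 library gave 9 to 10 lower members with a tract start, 9 to 11 without, and 8 to 10 lower EIF3 genes. Without members of uncertain level, 8 were higher and 24 lower of 56, and 8 and 19 of 45 when exons shared on either strand were counted; fewer members stand behind those counts.

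Log2 differences of ratios over the same fits ran from -0.73 to -0.54 (EIF4EBP1 to EIF4E), -0.55 to -0.34 (EIF4A2 to EIF4A1), -0.78 to -0.59 (PDCD4 to EIF4A1), -0.41 to -0.36 (EEF1A2 to EEF1A1), 0.12 to 0.21 (EEF2K to EEF2), 0.91 to 1.05 (EIF4EBP2 to EIF4EBP1), 0.56 to 0.75 (EIF5A2 to EIF5A) and 0.17 to 0.25 (EIF1B to EIF1).

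Signs turned only among members that were not called: EIF2D 0.027, EIF2B1 0.034, EIF2B5 0.0099, EIF3A 0.027 and EIF4H 0.048 as deposited; EIF2AK4 -0.0073, EIF4E3 -0.011 and EIF5B -0.0031 with no filter. Without 1 library, log2 fold changes ran from -0.12 to 0.11 (EIF5B), -0.029 to 0.034 (EIF4E3), -0.012 to 0.032 (EIF2AK4) and -0.039 to 0.0076 (EIF4H). The causes were not tested. Replicate numbers did not pair the libraries (correlations of deviations 0.111, -0.022 and -0.012), and with the replicate block 7 members were higher and 30 lower, only EIF2AK2 losing its call (adjusted p = 0.054).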

Other observations

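The 300-base windows around RefSeq starts (250 bases before to 50 after) were also searched for 3 motifs on both strands, chosen with results of these data known. The E-box CACGTG was in 14 of the 55 members with an entry (25.5%) and in 8.77% of all genes with an entry. TGACGTCA, the cyclic AMP response element, was in 1 member (1.82%) and 2.25% of genes, and TGATGNAA, a form bound by ATF4 with its partners, in 1 member (1.82%) and 4.46% of genes. A match describes letters in the window and not a bound site, and members with several starts had more windows to match, 73 in all.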
